A study of Mus musculus with 26 samples.

Results

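The 3′ UTR peaks of RNA 5-hydroxymethylcytosine (5hmC) were the peaks whose summit lay in the 3′ untranslated region of a protein-coding transcript and in no coding sequence. Of 56538 peaks in 13 hMeRIP-Seq libraries, 1765 (3.12%) met this rule, and merging those that overlapped by at least 1 bp gave 834 regions of the 23367 regions in the whole series (3.57%). They lay in 746 genes, or 3.74% of the 19968 coding genes with an annotated 3′ UTR. A region counted as present in a library when the library had a 3′ UTR peak in it.

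In hMeRIP-Seq, fragmented total RNA is immunoprecipitated (IP) with an anti-5hmC antibody and sequenced beside an input, the same RNA without the pull-down. WT ESC were wild-type mouse embryonic stem cells grown on gelatin with LIF, a cytokine that keeps them undifferentiated. TKO ESC carried knockouts of Tet1, Tet2 and Tet3, the genes of the Tet dioxygenases, and WT EB were embryoid bodies, aggregates of differentiating cells that wild-type ESC formed over 4 days without LIF. In Tet2-KI ESC the endogenous Tet2 was tagged with Flag, HA and Twin-Strep by CRISPR-Cas9n editing, with sorting of GFP-positive cells and picking of clones, and in Tet2deltaRBD-KI ESC the tagged Tet2 lacked its RNA-binding domain. The first 3 groups had 3 libraries each and the knock-in groups 2 each, and whether the knock-in replicates came from separate clones is not given in the sources used here. The p-values below therefore measure only the spread between these libraries.

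The 3′ UTR is the stretch of an mRNA between the stop codon and the poly(A) tail. It holds the sites at which microRNAs and RNA-binding proteins regulate the stability, translation and localisation of the message, and through alternative polyadenylation a gene can make mRNAs with longer or shorter 3′ UTRs. Tet proteins oxidise 5-methylcytosine to 5hmC, in RNA as in DNA, and cytosine is a pyrimidine, so the base composition of a peak describes the sequence around the modified sites.

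The sequences of the most widely present regions are shown first, because they are the 3′ UTR sites that most libraries had in common. For each of the 7 regions present in at least 11 of the 13 libraries, the 30 nt of its 200-nt interval that held the most purines are given, read from the mm9 genome on the transcript strand, 5′ to 3′. Capitals mark runs of at least 5 purines (A or G).
Peg10 (chr6:4709706-4709735, plus strand): gataagataggataagataagataagctag
Map4k4 (chr1:40082335-40082364, plus strand): tAAAAAAGAAAGAAAAGGAAAAGAAAAGtg
Kank2 (chr9:21571670-21571699, minus strand): aaatgagcaatggatGAGAAActgggttgg
Prpf19 (chr19:10979758-10979787, plus strand): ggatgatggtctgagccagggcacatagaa
Bend3 (chr10:43232145-43232174, plus strand): GGGGGGtagccaagctgtgaaatcAGAGAA
Lass4 (chr8:4525120-4525149, plus strand): AAGAAAAAAGAAGAAAAAAAGAAAGAGAAA
Fam98b (chr2:117096701-117096730, plus strand): aggtggtggtggtggtgggtatAGAAGAta

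Lass4 held 30 purines in its 30 nt and Map4k4 28, Peg10 had a repeated gataa unit with no run of 5 purines, and Prpf19 held 20 purines. The same regions therefore ranged from pure purine tracts to mixed sequence.

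The stretches of the regions at the extremes of base composition are shown next, because base composition set 3′ UTR peaks apart from the rest of their 3′ UTRs. Among the 76 regions in at least 5 libraries, Lass4 above had the lowest pyrimidine content, 25% of its 200 nt, and the next 5 are given by their purine-richest 30 nt, with runs of at least 5 purines in capitals.
Fbxl19 (chr7:134911905-134911934, plus strand): gggatGGGGGGccAAAAAGGGAAAAcagag
Isoc2a (chr7:4847141-4847170, plus strand): AGGGAGtGGGGGGGGtGGGGGGGtGGAGGG
Tmem126b (chr7:97616875-97616904, minus strand): AGAGAGAtGGAAAAGAAAGAGtagcAGAAG
Lpl (chr8:71429480-71429509, plus strand): GAAAGAAAGAAAGAAAGAAAGAAAGAAAGA
Fads6 (chr11:115143833-115143862, minus strand): GGAAGGGcccagtGGAGActGAAGGAGGGA

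The 4 regions in at least 5 libraries with the highest pyrimidine content are given by their pyrimidine-richest 30 nt, with runs of at least 5 pyrimidines (C or T) in capitals.
Il12rb2 (chr6:67241639-67241668, minus strand): CCCTCatcaTCTCCaacccaTCCTCTCCat
Dlc1 (chr8:37632075-37632104, minus strand): CTCTCTCTCTCTCTCTCTCTCTCTCTCCCT
Eif2c1 (chr4:126116128-126116157, minus strand): TCCCCTCCCatcaTTCCTCTCCacaTTCTC
Midn (chr10:79620477-79620506, plus strand): gTTTTTTTCCTCCacattttgagattttgt

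Over their 200 nt, the 5 purine-rich regions held 28.5% to 33.0% pyrimidine and the 4 pyrimidine-rich ones 55.5% to 64.5%. Il12rb2, Dlc1 and Eif2c1 carried UC tracts and Midn a U tract.

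The position of the regions along the 3′ UTR was described next. Summits lay a median of 590.5 nt from the stop codon (quartiles 236 and 1299 nt) and 974 nt from the transcript end (quartiles 452.25 and 1918.75 nt), counted in spliced 3′ UTR sequence. When each 3′ UTR was divided into 10 equal bins, the bin at the stop codon held 18.0% of the regions, the next 2 bins 13.2% and 12.6%, and the bin at the transcript end 3.24%. Between the stop codon and the midpoint of the 3′ UTR lay 62.0% of the regions, and 829 (99.4%) were in the last exon of the transcript. The share of all 3′ UTR sequence in last exons is not given here. All positions refer to the transcript with the longest annotated 3′ UTR, and which 3′ UTRs the cells used is unknown here.

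**Figure D1:**
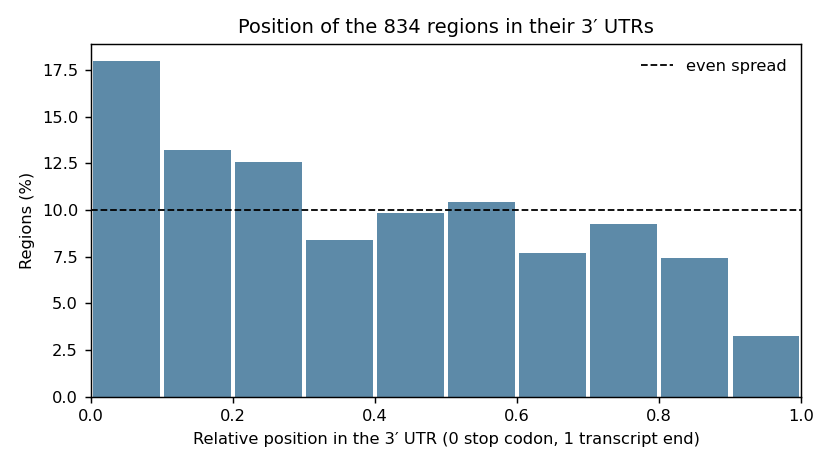
Percent of the 834 regions in each of 10 equal bins of the 3′ UTR, from the stop codon (0) to the transcript end (1); the dashed line is an even spread. The bar at the stop codon reaches 18.0% and the bar at the transcript end 3.24%.

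Within 200 nt of the stop codon were 192 regions (23.0%), whereas these 200 nt made up 15.8% of the 3′ UTR length of the regions. Within 200 nt of the transcript end there were 58 regions (6.95%). The median relative position per library (0 at the stop codon, 1 at the transcript end) ran from 0.315 in TKO ESC replicate 3 to 0.488 in Tet2deltaRBD-KI ESC replicate 1, so that in all 13 libraries it fell on the stop codon side. In each of the 3 comparisons tested, the libraries of both groups overlapped. Library medians averaged 0.383 ± 0.0354 for WT ESC, 0.367 ± 0.0647 for TKO ESC and 0.395 ± 0.0304 for WT EB, with SD over 3 libraries. For the knock-in groups they averaged 0.434 ± 0.00930 with Tet2-KI ESC and 0.439 ± 0.0690 with Tet2deltaRBD-KI ESC, with SD over 2 libraries. The differences were 0.016 between WT ESC and TKO ESC (exact permutation p = 0.9), -0.013 between WT ESC and WT EB (exact permutation p = 0.5) and -0.0054 between the knock-in groups (exact permutation p = 1).

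Genes with a region had long 3′ UTRs, with a median of 1999 nt against 828 nt over all coding genes, taking the longest annotated 3′ UTR of each. When these genes were divided into 4 classes of about equal size by 3′ UTR length, 0.340% had a region in the class with the shortest 3′ UTRs, and 2.29%, 3.97% and 8.36% in the next. Per megabase of 3′ UTR, the 4 classes held 22.5, 43.5, 34.4 and 31.7 regions, so beyond the shortest class the density did not climb with length. Of the 746 genes, 667 had 1 region, 72 had 2, 5 had 3 and the rest had 4. A coding sequence peak in any library occurred in 280 of them (37.5%, against 13.4% of coding genes with a 3′ UTR) and an intron peak in 426 (57.1% against 27.4%), while 236 (31.6%) had neither. Peak lists hold no expression levels, and the part of expression in these shares was not tested.

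The genes with the most regions were Rufy2 and Dlc1, with 4 each, and Glul, Lin28b, Tns3, Chd2 and Iffo2, with 3 each. Rufy2, an adaptor of endosomal trafficking, had its regions 4729, 5529, 6403 and 6975 nt from the stop codon, in 2 to 4 libraries each, and all overlapped a gene on the other strand, so that their gene of origin is uncertain. Dlc1 had regions 336, 1332, 1648 and 1995 nt from the stop codon. The Dlc1 region at 336 nt was present in all 4 knock-in libraries and in none of the other 9, the region at 1995 nt only in WT ESC replicate 2. The regions of a gene thus differed in the libraries that held them. Lin28b, an RNA-binding protein that blocks let-7 maturation, had regions in the 3′ UTRs of 2 different transcripts.

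Base composition was then compared between peaks and the 3′ UTRs that held them. The 834 regions held 46.5% ± 7.73 pyrimidine over the 200-nt interval (SD over regions), against 50.7% ± 6.45 in 8349 consecutive 200-nt tiles of the 3′ UTRs of the same genes and 51.3% in tiles of all coding genes. The difference lay in G, at 27.2% in regions and 23.1% in tiles, and in T (U in the RNA), at 25.9% and 29.3%. A was at 26.4% and 26.2%, and C, the base that carries the mark, at 20.5% and 21.4%. Regions with at most 35% pyrimidine numbered 54 (6.47%, against 1.41% of tiles), whereas 16 regions (1.92%, against 1.64%) held at least 65%. The 700 regions whose interval stayed inside the 3′ UTR held 46.6%, so the intervals that reached into neighbouring sequence did not set the value.

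In each library, 3′ UTR peaks held less pyrimidine than the whole 3′ UTRs of the same genes (13 of 13 libraries), with a difference of -2.07 percentage points in WT EB replicate 1 and -6.07 in TKO ESC replicate 2 as the extremes. Regions in more libraries lay lower: the mean was 47.4% ± 7.55 in the 502 regions of 1 library, 45.2% ± 7.90 in the 256 regions of 2 to 4 libraries and 44.5% ± 7.51 in the 76 regions of at least 5 (SD over regions). These are descriptions, since regions of the same library are not independent.

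3′ UTR peaks were richer in pyrimidine than peaks in coding sequence and in introns. Library means ran from 42.8% in TKO ESC replicate 2 to 48.2% in WT EB replicate 1 for 3′ UTR peaks, from 36.3% to 44.0% for coding sequence peaks and from 39.4% to 43.0% for intron peaks. Within a library, 3′ UTR peaks exceeded coding sequence peaks by 6.22 ± 2.78 percentage points (SD, 13 libraries; higher in 13 of 13; lowest 1.68; two-sided exact sign-flip permutation p = 0.000244, Benjamini-Hochberg p = 0.000488 over 4 tests). They exceeded intron peaks by 4.04 ± 1.73 points (higher in 13 of 13; exact permutation p = 0.000244, adjusted 0.000488), and this p is the smallest that 13 libraries allow. The parts themselves differ in the same order for coding sequence: 51.2% of all annotated 3′ UTR bases are pyrimidine, 47.9% of coding bases and 51.1% of bases outside exons. The smallest gap to coding sequence peaks was in Tet2deltaRBD-KI ESC replicate 2, whose coding sequence peaks held 44.0%.

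**Figure D2:**
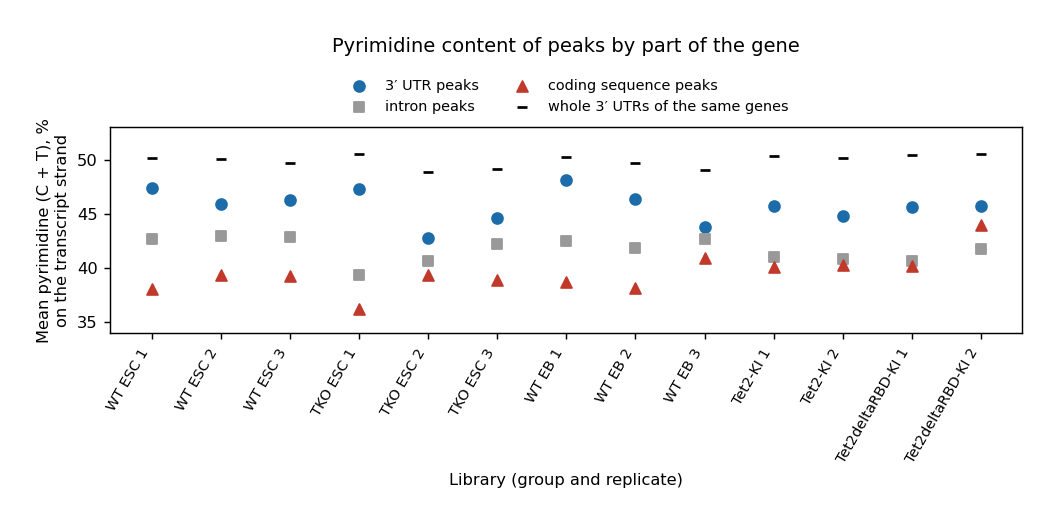
Mean percent of C and T on the transcript strand, per library, in 3′ UTR peaks (circles), intron peaks (squares), coding sequence peaks (triangles) and the whole 3′ UTRs of the genes with 3′ UTR peaks (dashes); the axis starts at 34%. In all 13 libraries the circles lie above the squares and triangles and below the dashes.

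With all peaks, the libraries of WT ESC overlapped those of TKO ESC and of WT EB in this measure. WT ESC libraries held 47.5%, 45.9% and 46.3% pyrimidine in 3′ UTR peaks, TKO ESC libraries 47.3%, 42.8% and 44.6%, and WT EB libraries 48.2%, 46.4% and 43.8%. The difference was 1.65 points between WT ESC and TKO ESC (exact permutation p = 0.3) and 2.40 with the 1703 libraries alone (n = 2 each). Leaving out 1 library, it ran from 0.59 without TKO ESC replicate 2 to 2.85 without TKO ESC replicate 1. With every list shortened to its 498 most enriched peaks it was 5.07 points, without overlap of the libraries (exact permutation p = 0.1, the smallest possible). It was 0.44 points between WT ESC and WT EB (exact permutation p = 0.9; 1.02 in the 1703 libraries) and -0.40 between Tet2-KI ESC and Tet2deltaRBD-KI ESC (exact permutation p = 1). Here 1703 is the number that opens the sample descriptions of replicates 2 and 3 of these 3 groups; those of WT ESC and TKO ESC replicate 1 open with 1608 and that of WT EB replicate 1 with 1610, which was treated as a batch.

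Short motifs were counted in the 200-nt intervals on the transcript strand, with the opposite strand given as the reverse complement. GAGGA occurred in 310 regions (37.2%, against 22.8% of tiles of the same genes and 22.1% of tiles of all coding genes), and its reverse complement TCCTC in 161 (19.3% against 23.1%). GAGAGA occurred in 16.7% of regions (9.15% of tiles) and its reverse complement TCTCTC in 5.76% (7.31%). GAGGA stood at 37.3%, 37.5% and 35.5% of the regions in 1, in 2 to 4 and in at least 5 libraries, so it did not move with recurrence. Tandem repeats of at least 18 nt (20 nt for 4-nt units) were in 31 regions (3.72%), against 3.46% of tiles.

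Elements by which 3′ UTRs are regulated were no more frequent in regions than in tiles. The poly(A) signal AATAAA occurred in 8.63% of regions (10.7% of tiles of the same genes), the AU-rich core ATTTA, bound by decay factors, in 19.5% (26.0%), and TGTANATA, the element bound by Pumilio proteins, in 3.24% (4.32%). Seed matches were counted for the microRNA miR-294-3p, abundant in ESC, and for let-7a-5p, which rises during differentiation. Their mature sequences are printed from RefSeq (table build GRCm38.p6), with the seed, bases 2 to 8, in capitals.
mmu-miR-294-3p: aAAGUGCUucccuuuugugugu
mmu-let-7a-5p: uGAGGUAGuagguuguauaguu
The seed match of miR-294-3p, AGCACTT, was in 18 regions (2.16%, against 2.29% of tiles) and that of let-7a-5p, CTACCTC, in 9 (1.08% against 1.31%). A motif count describes letters only and says nothing of binding.

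The number of 3′ UTR peaks per library was compared to ask whether 3′ UTR peaks depend on Tet proteins, on differentiation or on the RNA-binding domain of Tet2. WT ESC libraries held 111, 184 and 126 of them in replicates 1 to 3, TKO ESC libraries 32, 108 and 73, and WT EB libraries 39, 57 and 102. No TKO ESC or WT EB library reached the lowest WT ESC library. Tet2-KI ESC libraries held 361 and 253 and Tet2deltaRBD-KI ESC libraries 208 and 111, again without overlap. In bulk RNA, fewer cells with a modified transcript and less modified RNA per cell cannot be told apart.

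WT ESC averaged 140.3 ± 38.6 such peaks, TKO ESC 71 ± 38.0 and WT EB 66 ± 32.5 (SD, n = 3 each). On the log2 scale WT ESC exceeded TKO ESC by 1.12 (2.17-fold; exact permutation p = 0.1) and WT EB by 1.17 (2.25-fold; exact permutation p = 0.1), and 0.1 is the smallest p that 3 against 3 libraries allow. Without TKO ESC replicate 1 the first difference was 0.63, and in the 1703 libraries the differences were 0.78 and 1.00. Tet2-KI ESC exceeded Tet2deltaRBD-KI ESC by 0.99 (1.99-fold; exact permutation p = 0.333, the smallest for 2 against 2; 0.54 without Tet2deltaRBD-KI ESC replicate 2). Over the 14 comparisons between groups made on 3′ UTR peaks, the lowest Benjamini-Hochberg p was 0.467, by exact permutation tests that cannot reach 0.05 at these sizes.

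Whole peak lists also differed in length, with WT EB replicate 1 shortest (498 peaks) and Tet2-KI ESC replicate 1 longest (10383), and the number of reads behind each list is unknown here. The 3′ UTR share was therefore taken over the peaks inside coding genes. It was 3.71%, 3.46% and 2.71% in WT ESC, 4.09%, 2.78% and 2.69% in TKO ESC, and 8.57%, 3.50% and 3.11% in WT EB. WT EB replicate 1, the shortest list, stood apart with 39 of 455 peaks, and the other 8 libraries overlapped. The Tet2-KI ESC libraries had 4.27% and 4.87% and the Tet2deltaRBD-KI ESC libraries 5.14% and 3.65%.

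The share differed by 0.11 percentage points between WT ESC and TKO ESC (exact permutation p = 0.9; 0.35 in the 1703 libraries), by -1.77 between WT ESC and WT EB (exact permutation p = 0.5; -0.22 in the 1703 libraries) and by 0.17 between the knock-in groups (exact permutation p = 1). The fewer 3′ UTR peaks of TKO ESC and WT EB thus went with fewer peaks in coding genes as a whole (2988 to 5317 per WT ESC library, 783 to 3882 per TKO ESC library and 455 to 3276 per WT EB library). The share depended on its denominator. Over the peaks in exons of coding transcripts it was 3.40 points higher in WT ESC than in TKO ESC, and over all peaks -2.26 points in WT ESC minus WT EB, both without overlap of the libraries (exact permutation p = 0.1 each, the smallest possible), while over the peaks in coding genes the groups overlapped.

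**Figure D3:**
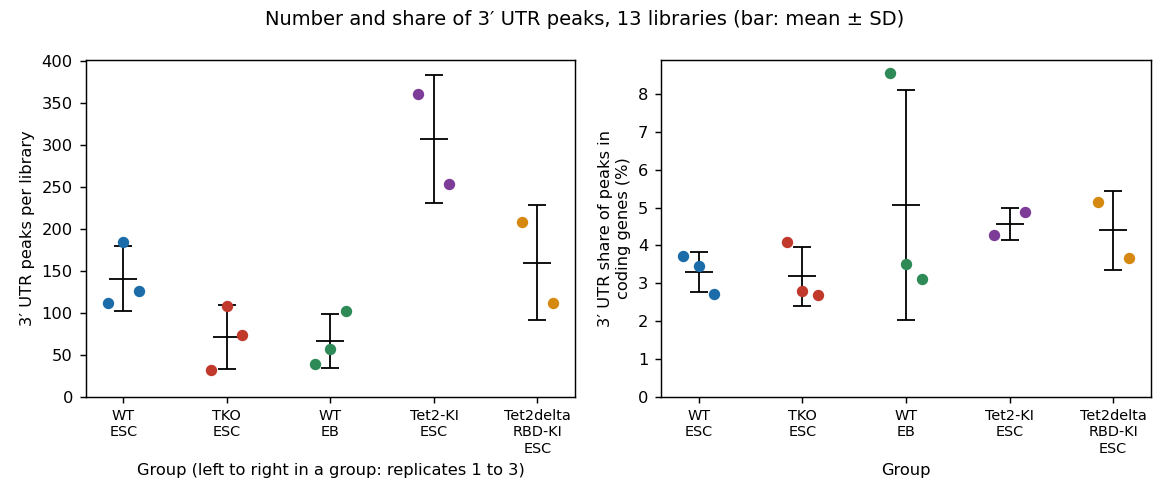
Number of 3′ UTR peaks per library (left) and their percent of the peaks inside coding genes (right), with a point per library and the group mean ± SD in black (n = 2 in the knock-in groups, n = 3 in the others). The numbers of WT ESC, 111 to 184, lie above those of TKO ESC and WT EB, while the shares overlap apart from the WT EB library at 8.57%.

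For the 9 libraries that are not knock-ins, the deposited lists also give the fold enrichment of IP over input at the summit of each peak. The median over 3′ UTR peaks was 6.35, 5.99 and 5.92 in WT ESC, 7.60, 7.19 and 6.94 in TKO ESC, and 6.34, 7.51 and 6.75 in WT EB. TKO ESC lay above WT ESC in every library, although it had fewer peaks: the log2 difference WT ESC minus TKO ESC was -0.25 (exact permutation p = 0.1). The log2 difference WT ESC minus WT EB was -0.17 (exact permutation p = 0.2). It was -0.26 in the 1703 libraries and -0.10 without WT EB replicate 2. Medians over called peaks leave out every site below the threshold, and the threshold a site must pass moves with depth, so they do not measure the amount of 5hmC. Compared within a library, the median log2 fold enrichment of 3′ UTR peaks exceeded that of coding sequence peaks by 0.15 ± 0.22 (SD, 9 libraries; higher in 7 of 9; exact sign-flip permutation p = 0.0625, adjusted 0.0833; 0.0144 with peaks of at least 5-fold enrichment only) and that of intron peaks by 0.05 ± 0.11 (higher in 5 of 9; exact permutation p = 0.219).

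Presence over the libraries was described for all 834 regions. In 1 library only were 502 regions (60.2%, against 53.6% of all regions of the series), and 139, 75 and 42 regions were in 2, 3 and 4 libraries. For all regions of the series, peaks of every kind counted. At least 5 libraries shared 76 regions (9.11%, against 12.5% of all regions) and at least 10 shared 14 (1.68% against 1.87%). By group, 299 regions had a peak in WT ESC, 157 in TKO ESC, 151 in WT EB, 468 in Tet2-KI ESC and 256 in Tet2deltaRBD-KI ESC. Of these, 132, 42, 47, 231 and 90 had no peak in any other group, and 26 regions had a peak in all 5. The knock-in libraries alone held 385 regions, the other 9 libraries alone 262, and 187 were in both sets.

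Among regions with a fold enrichment, which the knock-in lists do not give, the median was 5.61 for 203 of the 502 regions in 1 library, 6.18 for 170 of the 256 in 2 to 4 and 8.05 for all 76 in at least 5. The 76 regions of at least 5 libraries made up 71.9% of the 32 regions of TKO ESC replicate 1 and 19.9% of the 351 regions of Tet2-KI ESC replicate 1.

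Of the regions in all 13 libraries there were 2, in Peg10 and Map4k4. Peg10 is a paternally expressed imprinted gene that derives from a retrotransposon. Its region (chr6:4709674-4709933) lay 2566 nt from the annotated stop codon and 708 nt from the transcript end. Fold enrichment there was 17.0, 30.7 and 13.2 in WT ESC, 12.4, 34.9 and 28 in TKO ESC, and 11.5, 13.8 and 19.1 in WT EB, with a mean of 20.1 ± 8.84 (SD, 9 libraries). The groups overlapped, and the library with the highest value was of TKO ESC. Peg10 is translated partly by a ribosomal frameshift, so its 3′ UTR depends on which reading frame is annotated.

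Map4k4 encodes a serine/threonine kinase. Its region (chr1:40082232-40082462) lay 789 nt from the stop codon, with fold enrichment of 10.1, 37.1 and 17.7 in WT ESC, 20.2, 5.70 and 7.48 in TKO ESC and 7.67, 17.5 and 5.63 in WT EB, and a mean of 14.3 ± 10.2 (SD, 9 libraries). Replicates of a group differed as much as the groups did. A second Map4k4 region (chr1:40081852-40082188), 467 nt from the stop codon, was present in 10 libraries.

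The other regions in at least 10 libraries covered genes of several functions. Prpf19, a ubiquitin ligase of the spliceosome, had a region 213 nt from the stop codon with a mean fold enrichment of 14.9 ± 5.20 (SD, 7 libraries), absent from TKO ESC replicate 2 and WT EB replicate 3. Bend3, a transcriptional repressor with BEN domains, was absent from the same 2 libraries and reached 14.5 ± 6.67 (SD, 7 libraries). Eif2c1, the Argonaute 1 gene of the microRNA pathway, had a region 936 nt from the stop codon at 27.2, 26.6 and 16.1 in WT ESC, 11.8 in TKO ESC replicate 1, and 6.38 and 10.5 in WT EB replicates 1 and 2.

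Ddx17, an RNA helicase of microRNA processing and splicing, stood at 31.6, 11.2 and 18.8 in WT ESC, at 8.05 and 6.88 in TKO ESC replicates 1 and 3, and at 5.18 in WT EB replicate 1. Kank2, an adaptor of the cytoskeleton and of nuclear receptors, was in 12 libraries and missing in Tet2deltaRBD-KI ESC replicate 2, and Lass4, a ceramide synthase gene, in 11. Fam98b, a subunit of the tRNA ligase complex, had the region nearest to a stop codon among the most recurrent, at 67 nt, and Peg10 the farthest. Glul, the glutamine synthetase gene, had a region in 10 libraries that overlapped a gene on the other strand, and Midn, the midnolin gene, had 2 regions in 10 libraries each, clear of other genes.

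**Figure D4:**
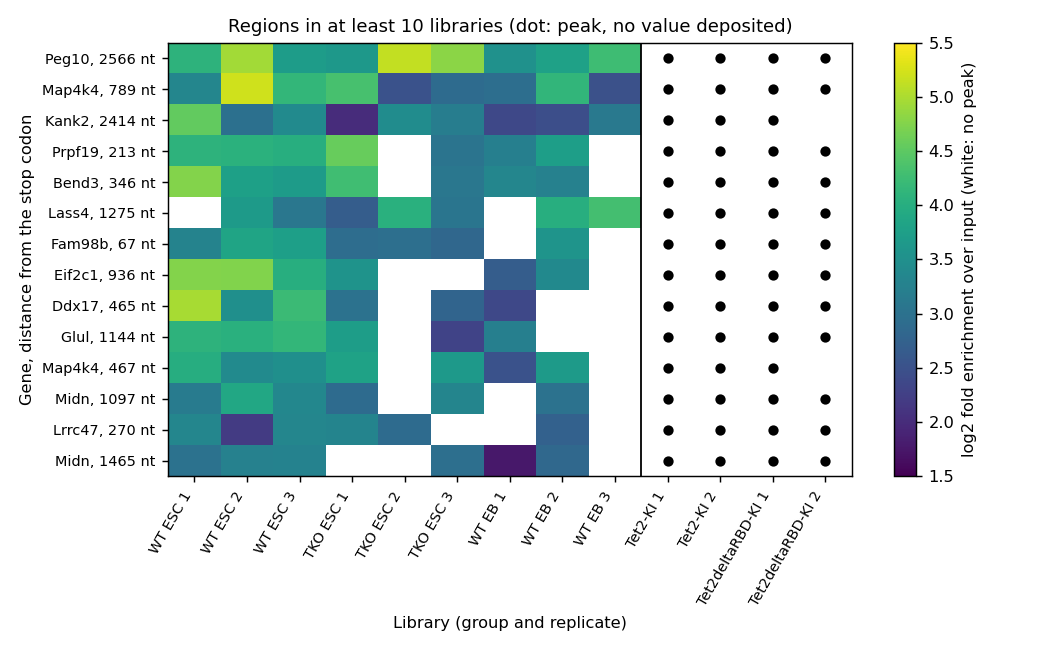
The 14 regions present in at least 10 libraries (rows, with the distance from the stop codon) over the 13 libraries (columns); colour is log2 fold enrichment over input, white is no peak, and dots mark a peak in knock-in libraries, whose lists give positions only. Peg10 and Map4k4 are filled in every column, and TKO ESC replicate 2 and WT EB replicate 3 have the most gaps among the 9 libraries with values, holding 6 and 4 of the 14 regions.

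Regions present in every library of a group were then checked for a peak in the group it was compared with. No peak here means no peak above the authors' threshold with its summit in a 3′ UTR there. A peak with its summit in coding sequence did not count, even where its interval overlapped the region. For the shares over the whole series, peaks of every kind counted, so these shares are not quite the same measure. Of 34 regions in all 3 WT ESC libraries, 10 lacked a peak in all 3 TKO ESC libraries (29.4%, exact Clopper-Pearson 95% interval 15.1 to 47.5), while the same was called for 32.2% of replicated regions over the whole series. In reverse, 1 of 6 regions in all TKO ESC libraries had no peak in WT ESC, against 1.73% over the series. In the 1703 libraries the counts were 23 of 54 (42.6%; series 44.3%) and 10 of 29 (34.5%, interval 17.9 to 54.3; series 19.8%).

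The 6 of these regions with the highest lowest fold enrichment in WT ESC were in Tmem201, Fbxl19, Glul, Ccnt1, Dlc1 and Zfp462. Tmem201, an inner nuclear membrane protein, stood at 9.10, 7.77 and 9.07 in WT ESC replicates 1 to 3, and Fbxl19, an F-box protein that binds CpG islands, at 14.2, 6.43 and 8.63. Both were also present in all 4 knock-in libraries and in no TKO ESC or WT EB library. Ccnt1, cyclin T1 of the transcription elongation factor P-TEFb, stood at 13.9, 9.10 and 5.62 and was present in 3 knock-in libraries.

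Dlc1, at 8.90, 8.98 and 5.54, was present at 4.58 in WT EB replicate 3, and Zfp462, a zinc finger protein that restrains differentiation, at 5.37, 11.1 and 6.34, was otherwise in Tet2-KI ESC replicate 1 alone. The reverse region was in Riok2 (chr17:17531306-17531588), a kinase of ribosome maturation, at 10.6, 33.0 and 8.84 in TKO ESC, and it overlapped a gene on the other strand. It was also present in both Tet2-KI ESC libraries and in Tet2deltaRBD-KI ESC replicate 1, so it was not restricted to TKO ESC.

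Of the same 34 WT ESC regions, which serve both comparisons, 12 had no peak in any WT EB library (35.3%, interval 19.7 to 53.5), against 54.9% over the series. In reverse it was 1 of 5, against 2.61%. In the 1703 libraries 32 of 54 (59.3%; series 63.9%) and 16 of 30 (53.3%, interval 34.3 to 71.7; series 23.7%) were called, so these values moved with the libraries that entered. Within 100 nt of the stop codon lay 1 of those 32 regions (3.1%) and 7 of those 16 (43.8%). Among the replicated regions it was 3 of 54 and 10 of 30. Peaks with a summit across the stop codon did not count, and their part in these shares was not tested. The lists of TKO ESC and WT EB replicate 1 hold 32 and 39 of the 3′ UTR peaks, which limits how many regions all 3 libraries of those groups can share.

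The highest by lowest fold enrichment were Tmem201, Fbxl19, Nfe2l1, Insr, Ccnt1 and Dynll2. Nfe2l1, a transcription factor of proteasome genes, stood at 9.54, 6.12 and 7.28 in WT ESC and at 7.58 and 3.06 in TKO ESC replicates 1 and 3. Insr, the insulin receptor, stood at 5.81, 12.0 and 10.2 in WT ESC and at 10.4 in TKO ESC replicate 1, with no peak in a knock-in library. Dynll2, a dynein light chain, stood at 5.37, 5.54 and 5.93 in WT ESC and at 6.52 and 7.91 in TKO ESC replicates 1 and 3. Nfe2l1, Insr and Dynll2 thus had peaks in TKO ESC, unlike Tmem201, Fbxl19 and Ccnt1.

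The region in all WT EB and no WT ESC library was in Amot (chrX:141884133-141884407), which encodes angiomotin, a regulator of Hippo signalling, at 8.58, 6.07 and 4.97. It had no peak in TKO ESC or the knock-in libraries. Among the 16 regions in both 1703 libraries of WT EB and in neither of WT ESC, 3 are named here after their values were seen. Igf2, the imprinted growth factor, stood at 9.57 and 10.1 in WT EB replicates 2 and 3 and had no peak in any other library. Sox4, a developmental transcription factor, stood at 6.64 and 6.15, and at 8.06 in TKO ESC replicate 2, and its region overlapped a gene on the other strand. Npm1, nucleophosmin, stood at 8.15 and 5.96, and at 10.8 in TKO ESC replicate 2.

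Of 127 regions in both Tet2-KI ESC libraries, 37 had no peak in a Tet2deltaRBD-KI ESC library (29.1%, interval 21.4 to 37.9), against 35.6% over the series. In reverse it was 6 of 58 (10.3%, interval 3.89 to 21.2), against 15.8%. Both shares of 3′ UTR regions lay near those of the series. Without Tet2deltaRBD-KI ESC replicate 1, 84 of the 127 regions had no peak in the remaining library (66.1%).

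Ranked by the number of the other 9 libraries with a peak, the first 6 of the 37 were in Upf2 and Trim24, with 6 libraries each, and Wsb1, Rpl15, Cd2ap and Arrdc4, with 4 each. Upf2, a factor of nonsense-mediated decay, stood at 10.6 and 7.68 in WT ESC, 11.9 and 6.90 in TKO ESC and 9.17 and 9.21 in WT EB, in replicates 2 and 3 of each. Trim24, a chromatin reader and ubiquitin ligase, stood at 7.44 and 8.74, 10.6 and 7.45, and 11.9 and 25.9 in the same libraries. None of the 6 had a peak in replicate 1 of WT ESC, TKO ESC or WT EB, the libraries outside the 1703 batch. In reverse the named regions were in Mllt6, a partner gene of leukaemia fusions, ORF61, Basp1, a membrane-bound signalling protein, and Cd151, a tetraspanin, and of these 4 only Mllt6 had a peak in another group, at 3.48 in WT ESC replicate 1.

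**Figure D5:**
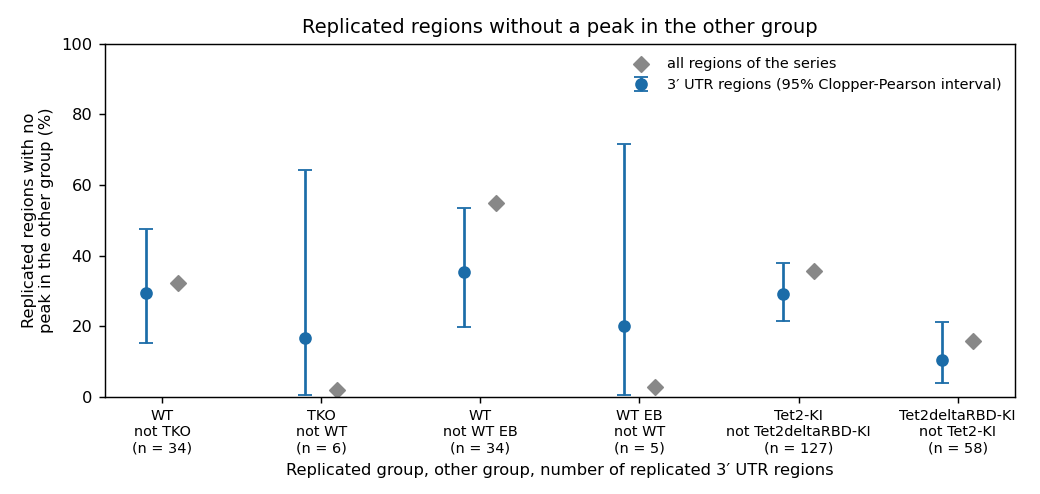
Percent of regions present in every library of a group that had no peak in the other group, for 3′ UTR regions (circles, with exact Clopper-Pearson 95% intervals that cover counting error only) and for all regions of the series (diamonds). The diamonds fall inside the interval of the circles in every comparison but WT ESC against WT EB, where 35.3% stands beside 54.9%. For the circles only peaks with a 3′ UTR summit counted, and for the diamonds peaks of every kind.

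Lists of genes with known roles were counted for 3′ UTR regions in any library, with 3.74% of all coding genes with a 3′ UTR as the background. Pluripotency factors had a region in 4 of 25 genes (16%), among them Sox2, Lin28a and Nr5a2. Sox2, a core pluripotency factor, had 2 regions, 132 and 363 nt from the stop codon, at 3.38 and 3.73 and at 5.10 and 2.83 in WT ESC replicates 2 and 3, and in no other library. Lin28a, a let-7 regulator, and Nr5a2, a nuclear receptor, had peaks in Tet2-KI ESC replicate 1 alone.

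Of 10 stem cell markers, 2 had a region, Sox2 and Tdgf1, the Nodal co-receptor. Tdgf1 stood at 3.13 and 3.36 in WT ESC replicates 2 and 3 and at 3.49 in TKO ESC replicate 3, and was present in Tet2-KI ESC replicate 1. Germ layer markers (0 of 15) and fibroblast markers (0 of 11) had none. The identity of the cells and the knockouts cannot be checked on peak lists, since a gene without a peak may still be expressed.

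Genes that act on mRNAs and their 3′ UTRs carried regions too. The list of proteins that bind 3′ UTRs had a region in 8 of 39 genes (20.5%), microRNA machinery in 4 of 16 (25%), mRNA decay and deadenylation in 5 of 32 (15.6%), and cleavage and polyadenylation in 2 of 21 (9.52%). Celf1, which binds GU-rich elements and promotes decay, had a region 4987 nt from its stop codon at 6.35 in WT ESC replicate 2 and 9.85 in TKO ESC replicate 2, present in all 4 knock-in libraries. Rc3h1, which encodes the decay factor roquin, was present in 3 knock-in libraries, and Drosha, the nuclear microRNA processor, in 1. Eif2c1 and Upf2 were the members of the microRNA and decay lists in the most libraries.

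Chromatin regulators of histones and nucleosomes had a region in 11 of 36 genes (30.6%), among them Chd2, a remodeller, whose most recurrent region stood at 10.0 and 6.97 in WT ESC replicates 1 and 2 and 5.15 in WT EB replicate 2. Polycomb repressive complex 2 had a region in 1 of 11 genes, the accessory subunit Mtf2, which had 2. The region 106 nt from a stop codon stood at 4.76 and 5.91 in WT ESC replicates 1 and 3 and was present in both Tet2-KI ESC libraries and 1 Tet2deltaRBD-KI ESC library. The Mtf2 region 173 nt from the stop codon of another transcript stood at 7.09 and 6.18 in TKO ESC replicates 2 and 3, was present in 1 Tet2deltaRBD-KI ESC library and overlapped a gene on the other strand. Cytosine modification enzymes had 1 of 11, Dnmt3b, in Tet2-KI ESC replicate 1. Mbd3, a subunit of the NuRD complex that the study discusses, had a region in Tet2-KI ESC replicate 2 alone.

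Cell cycle regulators had a region in 6 of 31 genes (19.4%), with Ccnd1, cyclin D1, at 6.94 in TKO ESC replicate 2 and in both Tet2-KI ESC libraries. Genes of LIF, FGF, Wnt, TGF-beta and Notch signalling had 6 of 43 (14%), of which the Wnt receptor gene Fzd7 was present in all 4 knock-in libraries and no other. Ribosomal proteins on the list had 0 of 26, although Rpl15, which was not on it, had a region. No list had a member present in all 13 libraries, and list shares above the background were not tested.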

How the data were processed

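RNA 5hmC was profiled by hMeRIP-Seq in 13 IP libraries of mouse cells in 5 groups, taken from the sample titles. The 13 input libraries were not used here. Reads of low complexity and from rRNA or tRNA were discarded by the authors, who trimmed the others with Trimmomatic, aligned them with STAR (mm9 with RefSeq transcripts) and called peaks per IP library against its input with MACS2 at q below 0.05, without pooling replicates. The deposited lists give 200-bp intervals around summits and, for 9 libraries, the fold enrichment of IP over input, a ratio computed by the authors' peak caller. The 4 knock-in lists hold positions only. Strand of the libraries is not given in the sources used here. No reads were used, so depth is unknown, and the number of libraries limits the precision.

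Summits (interval midpoints) were assigned on NCBIM37 (mm9) with GENCODE M1: a 3′ UTR of a coding transcript and no coding sequence of any. Kept intervals overlapping by at least 1 bp were merged. Positions, base composition and motifs were read on the transcript strand over the 200 nt around the region's summit, using the transcript with the longest 3′ UTR. Of 834 regions, 73 (8.75%) overlapped a gene on the other strand and 661 were clear of such genes and of introns; regions in near-identical gene families are uncertain. 163 intervals lay off the reference chromosomes. Over 78 pairs of libraries, lists shared at most 1.97% identical intervals, so none was a duplicate.

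Group differences were tested by two-sided exact permutation over libraries, and differences between parts of genes by exact sign flips of library differences, with Benjamini-Hochberg adjustment. Clopper-Pearson intervals at 95% cover counting error only. Named regions followed a rule: those in all 13 libraries by mean fold enrichment; those replicated in a group and absent from the other with the highest lowest fold enrichment, or, for knock-in lists, ranked by the number of other libraries; the 5 genes with the most regions (2 tied genes were added); up to 3 members of each gene list in the most libraries; and the recurrent regions nearest to and farthest from the stop codon. Regions in at least 10 libraries and those named from the 1703 libraries were added after seeing values. The members, lists and tests were chosen with earlier results of these data known. Not every region that the rule selects is reported here. The alternatives were other denominators, stricter or shortened lists, a larger overlap, unambiguous summits, the shortest 3′ UTR, the 1703 libraries, a replicate block and leaving out libraries. Python 3.11.15, pandas 2.3.3, numpy 2.4.6, scipy 1.17.1 and pysam 0.24.0 were used, and the code was tested on simulated data.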

Additional observations from a re-analysis of the deposited data

How the results depend on the processing

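Of 255 values recomputed under alternatives, 221 kept their direction and their side of the threshold or stayed within their error, 21 turned sign, 10 moved and 3 passed the threshold; 44 came from leaving out each library in the within-library results, an alternative chosen after seeing the data. The signs that turned belonged to differences between groups that no test separated. The share of 3′ UTR peaks differed between WT ESC and TKO ESC by -0.335 points over all peaks (leaving out a replicate: -0.139 to 0.557), and 3.40 over exonic peaks, between WT ESC and WT EB by 1.08 over exonic and -2.26 over all peaks, and between the knock-in groups by -0.569 to 0.916 without a replicate. The relative position of WT ESC against TKO ESC was -0.0030 in the 1703 libraries (without a replicate -0.0103 to 0.0518). Against WT EB it was 0.0132 at a fold enrichment of at least 5, 0.00753 with lists shortened to 498 peaks, 0.0138 for summits clear of other genes and introns and 0.0255 with the shortest 3′ UTR (without a replicate -0.0302 to 0.00746), and between the knock-in groups 0.0127 and 0.0271 under the last 2 settings (without a replicate -0.0542 to 0.0434). Pyrimidine content ranged from -0.717 to 1.46 points without a replicate for WT ESC against WT EB and from -0.863 to 0.0688 for the knock-in groups.

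The fold enrichment of 3′ UTR over coding sequence peaks was 0.0144 on the log2 scale with peaks of at least 5-fold enrichment only (exact permutation p = 0.844), passed 0.05 for clear summits (0.171, exact permutation p = 0.0391) and ran from 0.113 to 0.194 without a library (0.177, exact permutation p = 0.0391, without TKO ESC replicate 2, and 0.194, p = 0.0312, without WT EB replicate 3). Replicated regions without a peak in the other group were 0% for TKO ESC against WT ESC with clear summits (without a replicate 10.5% to 34.5%), 59.3% for WT ESC against WT EB in the 1703 libraries and 57.5% at presence in at least 2 of 3 replicates (without a replicate 41.2% to 50.0%), and 0% for WT EB against WT ESC at a fold enrichment of at least 5 (without a replicate 8.33% to 50.0%). Without a replicate they were 32.3% to 66.1% for Tet2-KI ESC against Tet2deltaRBD-KI ESC and 19% to 37.3% in reverse, since a lone library sets presence there. Otherwise the cause was not tested.

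Replicate numbers did not meet the limit of a correlation over 0.1 in every pair: the correlations of deviations between same-numbered libraries were 0.113, 0.053 and 0.055 for WT ESC with TKO ESC, 0.0056, 0.074 and 0.0089 for WT ESC with WT EB and -0.0107 for the knock-in groups. Between WT ESC and TKO ESC, whose replicates 1 share the 1608 prefix, each library correlated best with its own number (different numbers -0.071 to 0.0022), a hint from the data only. With a replicate block the difference in peak number was 1.12 for WT ESC against TKO ESC (exact permutation p = 0.25, the smallest that 3 pairs allow). No call was possible with or without the block at these sizes.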
